A study of Mus musculus with 2 samples.

Results

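Tight clusters of H3K4me1 regions in mouse pre-B cells are described here: runs of 5 or more called regions on an autosome in which each region begins at most 5000 bases after the end of the one before. Such runs, called chains below, were built from all 46934 autosomal regions of the deposited list, which held 48130 regions in all. There were 867 chains of 5 or more, holding 5334 regions. Of these regions, 4286 were longer than the shortest length in the list and shorter than 10000 bases, and these are the members. They make up 8.91% of the whole list. The other chain regions were 746 of that shortest length and 302 of at least 10000 bases. Members were chosen by their own positions and lengths, so spans, gaps and chain numbers are given as descriptions, with no test.

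The cells were pre-B cells from bone marrow of C57BL/6 (B6) mice of both sexes, 6 to 14 weeks old, that lacked RAG1 (RAG1-/-) and carried a rearranged IgM transgene. Chromatin from 1 sample was precipitated with an antibody to H3K4me1, and 1 input sample without antibody, from cells of the same genotype, served the authors' region calling. Without RAG1 an antigen receptor gene cannot be rearranged, so these cells carry the transgene's heavy chain in place of their own. Whether mice were pooled is not stated in the labels, and no replicate spread could be measured. The antibody sample had 50945360 tags according to the header of its file. For the input sample, depth is not given in the sources used here. Positions carry no gene names and no mm9 gene annotation was used, so the labelled cell type was not checked against marker genes and no gene is assigned to a chain.

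H3K4me1, histone H3 monomethylated on its lysine 4, is written mainly by the methyltransferases KMT2C and KMT2D. It marks active and primed enhancers and the flanks of active promoters, where trimethylated H3 takes over near the start site itself. In B-cell precursors, groups of enhancers lying close together are a known feature of loci that encode lineage factors. At an active enhancer the mark often flanks a nucleosome-depleted core that transcription factors occupy, so marked stretches can be interrupted by short unmarked ones.

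Most chains were small, and long ones were rare. Chains of exactly 5 regions numbered 426, or 49.1% of the 867, and chains of 6 numbered 194. There were 115 chains of 7, 60 of 8 and 34 of 9. Only 38 chains held 10 or more regions, and the largest held 19. Just outside the size limit lay 910 chains of 4 regions, beside 2172 of 3, 6450 of 2 and 18544 regions that stood alone. Chain numbers thus fell with each added region from 1 to 10, as the plot of chains by size shows.

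**Figure D1:**
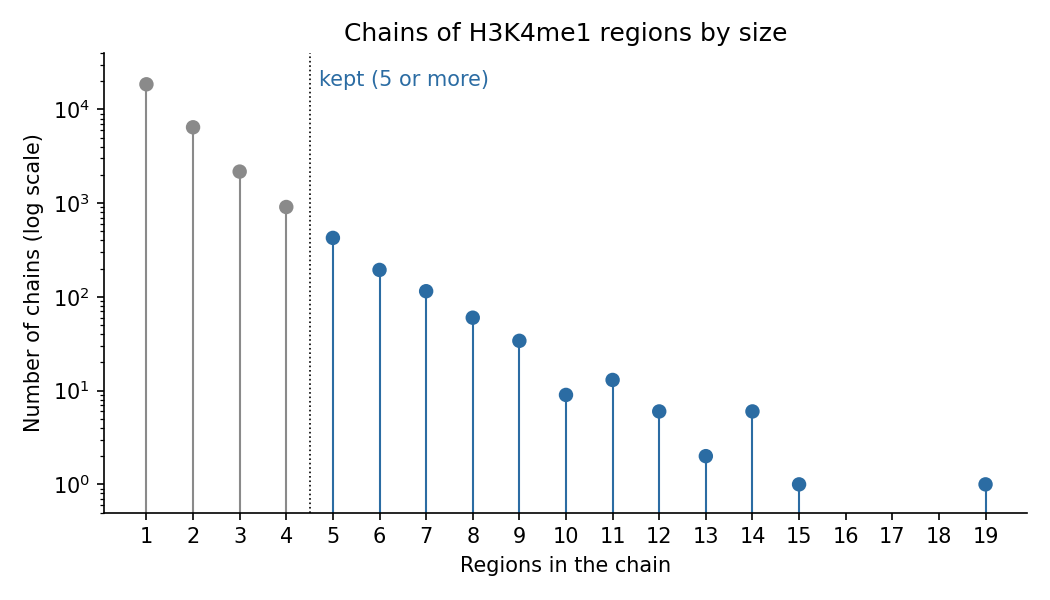
Number of chains (log scale) against the number of regions in the chain, over all autosomal regions. Blue points are the 867 kept chains and grey points are shorter chains and single regions. The numbers fall from 18544 single regions to 426 chains of 5 and 1 chain of 19.

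The 867 chains took up little of the genome and held a larger part of the marked bases. Their spans added up to 26.6 Mb, which is 1.11% of the 2401 Mb between the first and last regions of the 19 autosomes. Within that span lay 11.4% of autosomal regions and 16.1% of autosomal covered bases (17.4 Mb). Region density inside the chains was 200.8 per Mb, beside 19.5 per Mb over the autosome spans, a contrast that the rule itself creates. Members alone covered 12.2 Mb, or 70.3% of the covered bases of the chains.

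A chain was typically a stretch of many kilobases, of which more than 50% lay inside regions. The median span was 26.7 kb, with 25th and 75th percentiles of 20.4 and 37.4 kb. The shortest span was 8.55 kb and the longest 129.0 kb. A span of at least 50 kb was reached by 84 chains, and 205 were under 20 kb. The covered share, the part of a chain's span that lies inside regions, had a median of 63.0% (25th and 75th percentiles 52.9 and 71.4%). It ranged from 21.1 to 92.0%. In 704 chains (81.2%) at least 50% of the span was covered. A covered share of at least 80% was found in 68 chains, and one under 40% in 51.

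Larger chains were longer but not much denser. Median span rose from 22.0 kb in chains of 5 regions to 26.7 kb in chains of 6, 38.1 kb in chains of 7 and 47.2 kb in chains of 8 or more. The median covered share in the same order was 61.1, 62.4, 66.9 and 65.1%. Chains of 4, just below the limit, had a median span of 15.7 kb and a median covered share of 61.5%. For chains of 3 the covered share was 61.9% and for pairs 71.5%. By covered share, chains of 5 therefore lay close to chains of 3 and 4. The scatter of span against covered share shows few long chains with low cover.

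**Figure D2:**
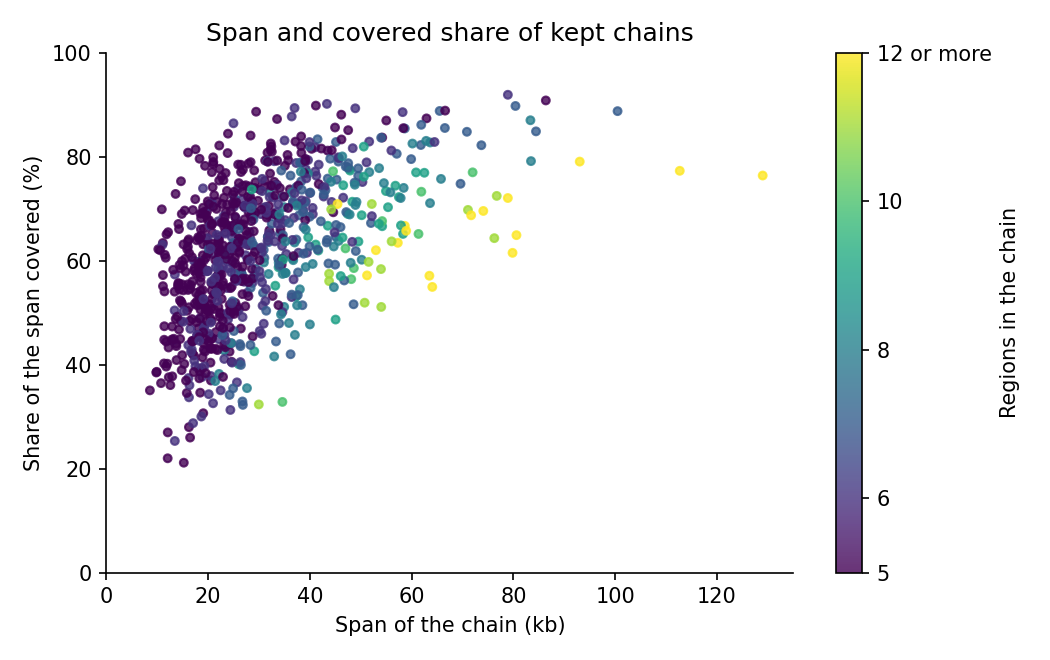
Share of the span covered by regions (%) against the span (kb) for each of the 867 kept chains, coloured by the number of regions (12 or more share 1 colour). Chains run from 8.55 to 129.0 kb in span and from 21.1 to 92.0% in cover, and most lie above 50%.

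Gaps inside the chains were short, well below the limit that the rule set. Over 4467 inner gaps the median was 1745 bases (25th and 75th percentiles 965 and 2960 bases). Gaps under 1000 bases made up 26.4% and gaps from 1000 to below 2500 bases 40.8%. A further 22.3% ran from 2500 to below 4000 bases and 10.5% were at least 4000 bases. The shortest inner gap was 500 bases. The caller used peaks of 500 bases and a minimum distance between peaks of 1000 bases. The lower end of the gaps, in chains of every size, therefore comes from the caller. In chains of 2 to 4 regions, 13524 inner gaps had a median of 1550 bases, and 32.5% of them were under 1000 bases. Pairs had the shortest median gap, 1390 bases, beside 1719 in chains of 3 and 1679 in chains of 4. Gaps in the kept chains were thus no shorter by median than in shorter chains; the rule gave both the same upper limit.

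The smallest and largest gaps of a chain were usually far apart, as the extremes of several gaps tend to be. They were not compared with those of shorter chains. The smallest gap of a chain had a median of 715 bases, and the largest a median of 3789 bases. In 118 chains every inner gap was at most 2500 bases, and in 2 every gap was at most 1000 bases. At the other end, 371 chains (42.8%) had a gap above 4000 bases. Of the inner gaps, 46 exceeded 4900 bases, and of the 1733 gaps between a chain and the next region outside it, 26 were at most 5100 bases. The widest inner gap, 5000 bases, lay in a chain of 6 on chromosome 12 (33986018 to 34016714 of mm9), and the narrowest outer gap, 5004 bases (5.004 kb), lay beside a chain of 5 on chromosome 2 (84796365 to 84830590). Those 2 gaps stand just inside and just outside the limit.

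Members reached up to 9982 bases, with a median of 2128 bases (25th and 75th percentiles 1198 and 3855 bases). There were 768 members under 1000 bases, 1262 from 1000 to below 2000, 1568 from 2000 to below 5000 and 688 of at least 5000 bases. The 3 longest were 9982 bases on chromosome 5 (122677767 to 122687748), 9965 bases on chromosome 11 (86703563 to 86713527) and 9955 bases on chromosome 3 (95788513 to 95798467). Each of the 3 sat in a different chain, of 7, 5 and 6 regions. The shortest member length was shared by 13 members; in genome order the first was on chromosome 1 (37662606 to 37663231). One on chromosome 2 (168181855 to 168182480) and one on chromosome 3 (33918141 to 33918766) came next. Just outside the upper bound, 56 chain regions measured from 10000 to below 11000 bases, starting at 10008, beside 70 members of at least 9000 bases.

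Members tended to be longer than other regions held to the same length bounds. Regions that stood alone had a median of 1673 bases (15348 regions) and regions in pairs 1615 bases (11073). The median was 1836 bases in chains of 3 and 1942 in chains of 4. Members had medians of 2043 bases in chains of 5, 2093 in chains of 6, 2274 in chains of 7 and 2262 in chains of 8 or more. All regions within the bounds in chains of 1 to 4 together had a median of 1695 bases, 432.5 below that of the members. Among members 16.1% were at least 5000 bases long, beside 8.79% in chains of 2 to 4 and 5.17% of regions standing alone. The order held on each of the 19 autosomes, where the members' median ran from 1737 to 2348 bases and that of the other regions from 1565 to 1795. The same rule was used on each, and chromosomes of a single library are not replicates of the difference.

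**Figure D3:**
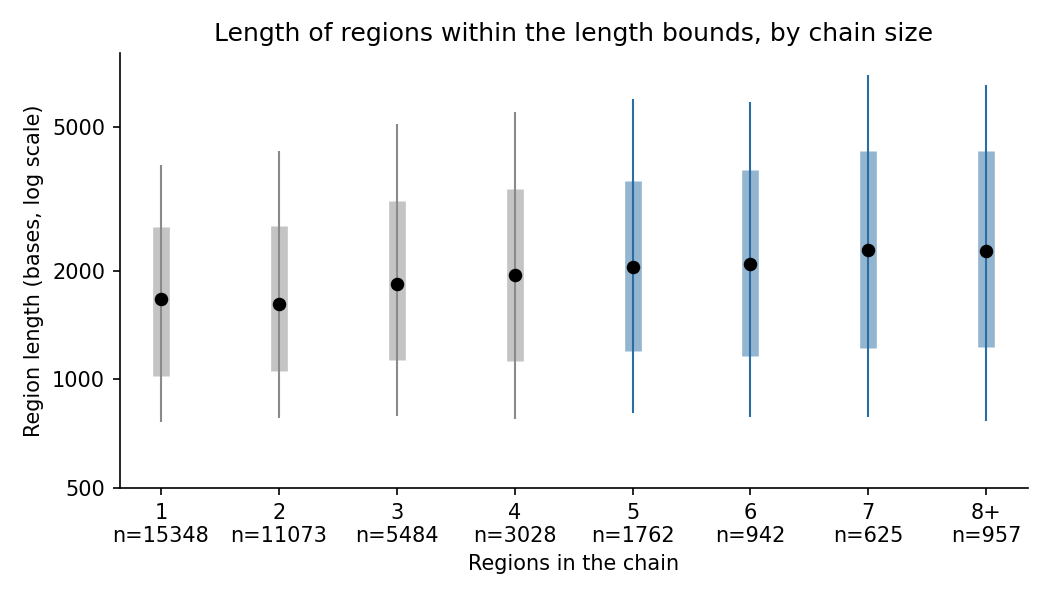
Length (bases, log scale) of regions within the length bounds, by the number of regions in their chain. Black points are medians, thick bars the 25th to 75th percentiles and thin lines the 10th to 90th. Medians run from 1615 bases in pairs to 2274 in chains of 7, with wide overlap between chain sizes.

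That difference depended on how closeness was measured. A gap runs from edge to edge, so with fixed centres a longer region has shorter gaps, and length is not independent of the rule. When regions were instead chained by centres at most 7500 bases apart, an alternative chosen after seeing the data, which favours short regions, there were 698 chains with 3375 members. Their median length was 1829 bases, beside 1721 for other regions within the bounds. The difference shrank from 432.5 to 108 bases and kept its direction.

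Chain regions fell outside the length bounds unevenly at the 2 ends. The shortest length was found for 14.0% of chain regions and for 14.3% of the other autosomal regions. Regions of at least 10000 bases made up 5.66% of chain regions and 1.72% of the others, and 29.7% of all 1017 such autosomal regions lay in chains. Gaps were measured from edge to edge, so the rule itself ties such lengths to chains. How much of the excess this makes was not tested. A chain held a median of 5 members, and 526 chains (60.7%) kept 5 or more after the length bounds were applied. In 261 chains every region was a member, and in 2 chains none was. A region of at least 10000 bases occurred in 242 chains, with up to 4 in a chain, and a region of the shortest length in 57.8% of chains, with up to 7. Both kinds occurred together in 137 chains. Of the 10 longest regions of the whole list, 5 lay in these chains, a number with the same limit.

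Long and short regions were mixed within a chain. The longest region was a median of 10.7 times as long as the shortest one in its chain (25th and 75th percentiles 5.76 and 17.6). It held a median of 39.6% of the chain's covered bases, and over 50% of them in 186 chains (21.5%). In 573 chains the longest region reached 5000 bases, while in 36 chains every region was under 2000 bases. Neighbouring regions within a chain were hardly alike in length: Spearman's rho was 0.028 over 4467 neighbour pairs, which share regions and a library. Gaps between a pair of regions both under 1500 bases had a median of 1887 bases (770 gaps), beside 1503 bases between a pair both at least 3000 bases long (554 gaps).

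Region lengths were also set out by place within the chain. The first and last regions of chains had a median of 1820 bases (1734 regions) and those between them 1940 bases (3600 regions). Among members the medians were 2034 bases at the ends and 2175 between. The same order was seen in chains of 4, with 1675 bases at the ends and 1767 between. At the ends 4.38% of regions were at least 10000 bases long, beside 6.28% of those between. Values over all kept chains mix sizes, and larger chains hold a greater part of their regions between the ends. Regions between the ends also had to meet the gap limit on both sides. In the 426 chains of 5, the longest region was the first in 80, the second in 89, the third in 84, the fourth in 99 and the last in 74. Median lengths at those 5 places were 1801, 1982, 1714, 1951 and 1684 bases, with no steady order from the ends to the middle.

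The chain with the most regions lay on chromosome 6, from 120609072 to 120667718. Its 19 regions covered 39.1 kb of 58.6 kb (66.7%), with inner gaps from 515 to 2648 bases. One region of 17.9 kb held 45.8% of the covered bases, 7 regions had the shortest length, and the 11 members had a median of 1008 bases. No chain held more regions of the shortest length. The broad region was in place 4 of the 19, and most regions of the shortest length lay after it. The next region before the chain lay 7.31 kb away and the next after the chain 65.0 kb away.

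A chain on chromosome 5 (104120084 to 104213104) followed with 15 regions covering 73.6 kb of 93.0 kb. It held 3 regions of at least 10000 bases, of which the longest was 15.2 kb, and 9 members with a median of 1469 bases. On chromosome 8, 14 regions covered 98.6 kb from 129272367 to 129401339, the longest span and the most covered bases of any chain. A single region of 45.2 kb made up 45.9% of that cover, and the 8 members, with a median of 4972 bases, lay on both sides of it. The cover of this chain on chromosome 8 was thus led by 1 region, whereas the longest region of the chain on chromosome 5 held 20.7% of its cover.

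In 4 other chains of 14 regions no region reached 10000 bases. On chromosome 16 (29989298 to 30053345) 13 of 14 regions were members, the longest was 8.28 kb, and 55.0% of the 64.0 kb span was covered. On chromosome 1 (130558843 to 130622322) 12 of 14 were members, and the longest, 6.60 kb, held 18.2% of the covered bases. A chain on chromosome 6 (114815226 to 114872503) had 10 members with a median of 3373 bases and a longest region of 6.70 kb. On chromosome 2 (170076249 to 170156064) 9 members had a median of 6311 bases, the highest among the 10 chains with the most regions, and 5 regions had the shortest length. That chain on chromosome 2 also had close neighbours on both sides, 5.72 kb before it and 5.30 kb after it.

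The remaining 3 of the 10 chains with the most regions each held at least 1 broad region. On chromosome 4 (135625651 to 135706237), 12 members stood beside 1 region of 18.5 kb in a span of 80.6 kb. On chromosome 1 (161912883 to 161991779), 7 of 13 regions were members, 4 had the shortest length, and 2 were at least 10000 bases long. On chromosome 8 (125440995 to 125492217), 1 region of 15.4 kb held 52.5% of the covered bases, and the 8 members had a median of 1154 bases. Broad regions occurred in 6 of these 10 chains, as the map of the 10 chains shows.

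**Figure D4:**
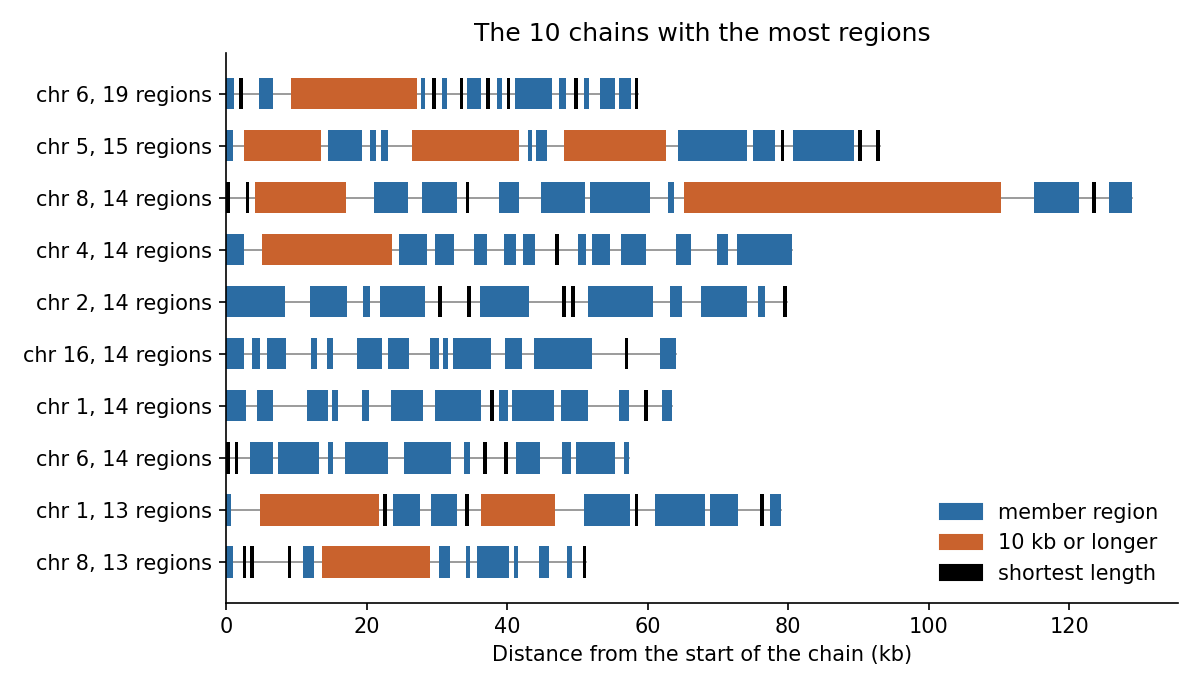
The 10 chains with the most regions, drawn from the start of each chain (kb). Blue bars are members, orange bars regions of at least 10 kb, black bars regions of the shortest length and grey lines the gaps. Chains run from 51.2 to 129.0 kb, and 4 of them hold no orange bar.

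Chains with the longest spans and the highest cover were led by broad regions. After the chain of 129.0 kb on chromosome 8, spans of 112.7 kb on chromosome 5 (66240006 to 66352682), 100.5 kb on chromosome 15 (58826670 to 58927124), 93.0 kb on chromosome 5 as above and 86.4 kb on chromosome 7 (139860906 to 139947264) were the longest. The chain of 112.7 kb held 12 regions, 4 of them at least 10000 bases long. In the chain on chromosome 15 a region of 55.3 kb made up 62.0% of the cover, and in that on chromosome 7 a region of 60.7 kb made up 77.4%. Cover was highest, at 92.0%, in a chain of 6 on chromosome 19 (41036755 to 41115652), where 4 members with a median of 2950 bases accompanied 2 broad regions, the longer of 36.5 kb. The chain on chromosome 7 was second at 90.9%. Cover of 90.2% on chromosome 7 (71127653 to 71170994), 89.9% on chromosome 14 (121738961 to 121780130) and 89.8% on chromosome 16 (95605293 to 95685683) followed.

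The thinnest chains held short regions only. On chromosome 19 (41491482 to 41506698), 5 regions covered 21.1% of 15.2 kb, and 3 of them had the shortest length. Another chain of 5 on chromosome 19 (16392110 to 16404160) covered 22.0% of 12.1 kb, with 4 regions at the shortest length and 1 member of 647 bases. In those 2 chains most regions were at the shortest length. The next had covers of 25.3% on chromosome 14 (79944944 to 79958396), 25.98% on chromosome 7 (19742099 to 19758555) and 27.0% on chromosome 10 (87416562 to 87428625). They had 4 of 6, 2 of 5 and 2 of 5 regions at the shortest length. Among these 5 chains the longest region measured 1475 bases (1.475 kb).

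Chains made of members alone reached 38.0 kb of cover. The first, on chromosome 1 (33603539 to 33661838), had 9 members with a median of 3103 bases and covered 65.2% of 58.3 kb. On chromosome 2 (118343041 to 118393368), 6 members with a median of 6658 bases covered 37.8 kb. The largest of the 5 by number was a chain of 11 on chromosome 10 (59341019 to 59397071), with a median member of 1902 bases. A chain of 8 on chromosome 11 (95188460 to 95232608) covered 75.2% of its span, and a chain of 6 on chromosome 19 (41439895 to 41479814) covered 82.9%. That last chain ended 11.7 kb before the thinnest chain of all, so a densely and a sparsely covered chain were neighbours on chromosome 19.

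Chains were spread over all autosomes, at a density that went with that of all regions. Over all 19 autosomes there were 0.361 chains per Mb of span. Chromosome 19 had the most per Mb, 43 chains or 0.739 per Mb, followed by chromosome 11 with 80 chains or 0.675 per Mb. Chromosome 14 had the fewest, 24 chains or 0.204 per Mb, beside 0.206 per Mb on chromosome 18 (18 chains) and 0.208 per Mb on chromosome 3 (32 chains). These 3 chromosomes cannot be ranked at such counts. Chromosome 19 was thus 3.62 times as dense in chains as chromosome 14, where the ratio for all regions was 1.87. Chains are built from those same regions, so the rule itself ties chain density to region density, and not in proportion. With 43 and 24 chains, counting error alone gives an interval of 2.21 to 5.94 for that ratio (from a Wilson interval on the share, 95%), which ignores that these were picked as the extremes.

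The share of a chromosome's regions that lay in chains ranged from 8.30% on chromosome 18 to 15.9% on chromosome 19. Over the 19 autosomes, Spearman's rho between regions per Mb and that share was 0.58, and between regions per Mb and chains per Mb 0.84. Both are descriptions of points from a single library, and the rule itself ties chains to region density. Chromosome 8 departed from this order, with 13.6% of its regions in chains at 17.6 regions per Mb, as did chromosome 10, with 8.996% at 21.1 regions per Mb. Chain shape varied less: the median span by chromosome ran from 24.4 to 34.2 kb, the median covered share from 57.8 to 68.3% and the median inner gap from 1542 to 1962 bases.

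**Figure D5:**
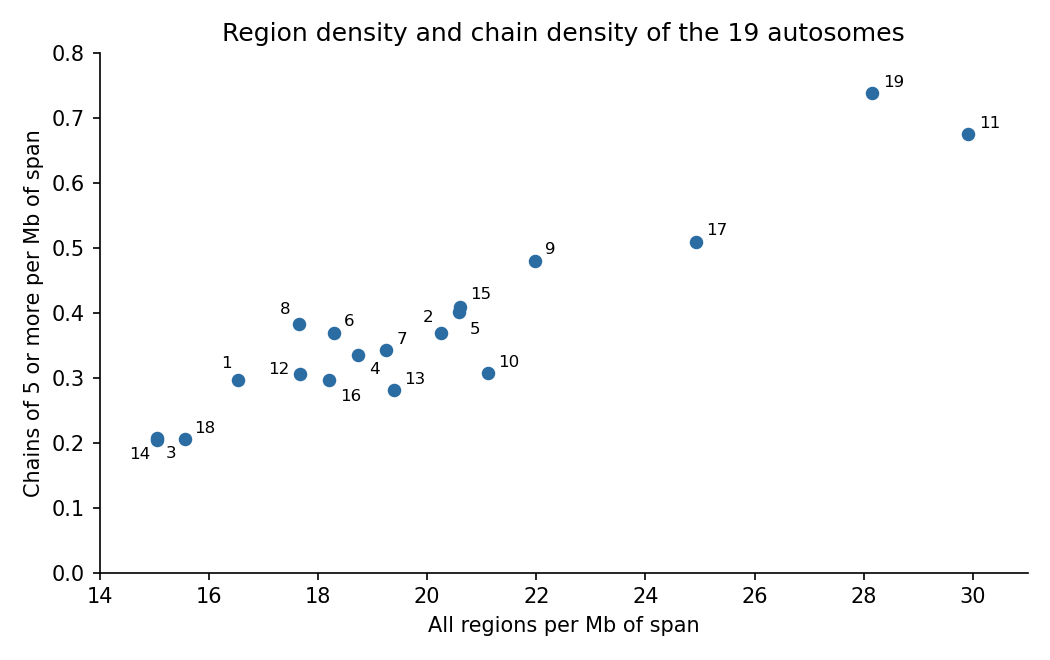
Chains of 5 or more per Mb of span against all regions per Mb of span, 1 point per autosome, labelled by chromosome. Chromosomes 19 and 11 stand apart at the upper right, and chromosomes 3, 14 and 18 at the lower left.

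Around the chains, more regions were found nearby. The nearest region outside a chain lay a median of 8.69 kb away (25th and 75th percentiles 6.28 and 13.9 kb), and within 10 kb for 511 chains (58.9%). The same distance had a median of 9.20 kb for chains of 4, 10.5 kb for chains of 3, 11.9 kb for pairs and 13.2 kb for single regions. All of these exceed 5 kb by the rule. Chains standing free, with more than 50 kb to the nearest region on either side, numbered 20.

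Many chains had a further chain close by. Another chain of 5 or more lay within 25 kb of 103 chains (11.9%), within 50 kb of 183 (21.1%) and within 100 kb of 270 (31.1%). The median distance to the nearest other chain was 314.4 kb. Joining chains at most 50 kb apart gave 85 groups of 2 or more chains, of which 11 held 3 or 4. Regions and cover of a group are those of its chains alone, so regions lying between the chains are left out. A group on chromosome 9 (32295705 to 32543024) had 4 chains with 26 regions, which covered 126.8 kb in a stretch of 247.3 kb. The other group of 4 lay on chromosome 6 (82946648 to 83075968), with 22 regions covering 47.6 kb. Among groups of 3, cover was widest on chromosome 17 (29137623 to 29323870), at 96.3 kb. It was 92.8 kb on chromosome 7 (71029272 to 71170994) and 92.5 kb in a further group on chromosome 17 (5074485 to 5224929).

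By megabase, chain midpoints fell in 580 of 2417 windows of 1 Mb (24.0%), and 65 windows held 3 or more. The window from 117000001 to 118000000 on chromosome 11 held the most, with 7 chains. Next, with 5 chains each, were a window of chromosome 2 (166000001 to 167000000), one of chromosome 10 (80000001 to 81000000) and a pair of chromosome 17 (5000001 to 6000000 and 34000001 to 35000000). The windows and the groups were picked after their values were seen.

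The order of rows in the deposited list gave a further view of the members. The header does not state what that order is. Longer regions came first (Spearman's rho of row and length -0.973 over 48130 regions), but not strictly, so length alone does not set the row. What else may set it is not known here. Chain regions took 319 of the 997 autosomal places in the first 1000 rows, or 32.0%, of which 55 were members. Long regions fill these rows, and chains held 29.7% of autosomal regions of at least 10000 bases. At lengths from 5000 to below 10000 bases, the median row was 2407 for members and 2786 for other regions, but the members were longer, with medians of 6718 and 6437 bases. From 3000 to below 5000 bases members were longer as well (3835 and 3691 bases). Each member was therefore set beside the other regions of 1 of 200 narrow classes of length. Lengths can still differ within a class, and what that adds to the shares was not tested. In that comparison 54.9% of members of at least 5000 bases came before the others' median row. The share was 58.2% from 3000 to below 5000 bases, 57.98% from 2000 to below 3000, 48.1% from 1000 to below 2000 and 46.5% for members under 1000 bases. At the shortest length, where length cannot differ, it was 46.9% of 746 chain regions. The shares were thus above 50% for members of at least 2000 bases and below it for shorter ones, by at most 8.22 percentage points. A separate, coarser comparison used 20 classes of length. In it, 52.0% of all 4286 members came before the median row of other regions of like length.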

How the data were processed

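One H3K4me1 and 1 input library of pre-B cells were used, and only the H3K4me1 sample has a file here. The submitters' processing notes name the mouse build mm9, HOMER 4.7 and Bowtie 0.12.9. Per the file headers, HOMER's findPeaks in its histone style stitched peaks of 500 bases into regions, needing 26 tags per peak and a signal 4-fold over input. The deposited file gives each region's start and end; its score, as deposited by the authors, is 1 in every row and holds no measurement, so signal per region was not used. Starts and ends are the authors' coordinates, printed counting from 1.

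Regions of the 19 autosomes were sorted by start, and neighbours with a gap of at most 5000 bases were chained. Chains of 5 or more were kept, and in them regions longer than 501 and shorter than 10000 bases. Members and lists were chosen with earlier results of these data known. Named were the 10 chains with the most regions, the 5 longest, the 5 most and 5 least covered, the 5 with most cover and no region outside the bounds, the chains nearest the gap limit, the autosomes of extreme density and the 3 longest and shortest members. With 1 library per group no test was run. The interval of the density ratio covers counting error only. Intervals of the medians treat chains, gaps or members of 1 library as independent, so they measure no spread between samples. Planned results on genes and sequence need an mm9 annotation and genome, which were not used here. Chaining was tested on simulated data. Alternatives changed the gap, the chain size, the regions chained and the length bounds. Python 3.11.15, numpy 2.4.6, pandas 2.3.3, scipy 1.17.1 and matplotlib 3.10.9 were used.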

Additional observations from a re-analysis of the deposited data

How the results depend on the processing

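Here 8 results were recomputed under 9 settings, giving 72 values; 47 of them moved by more than 1.5 times (counts) or outside the 95% interval of the reported value, and the cause was not tested beyond what each setting does by construction. Reported values were 867 chains, 5334 chain regions, 4286 members, a span of 26677 bases, a covered share of 63.0%, an inner gap of 1745 bases, a member length of 2127.5 bases (medians) and a density ratio of 3.62. With gaps up to 2500 bases there were 260 chains, 1475 regions and 1143 members, a span of 23620 bases, 75.6% covered and a gap of 1173 bases. With gaps up to 10000 bases there were 1902, 13600 and 11144, with 36513.5 bases, 48.1%, 2571.5 bases and members of 2032 bases. Chains of 4 or more gave 1777, 8974 and 7314, a span of 20084 bases and members of 2030.5 bases. Chains of 6 or more gave 441, 3204 and 2524, 35018 bases, 64.0%, 1676 bases and 2203 bases. Without regions of the shortest length there were 566 chains and 3334 regions, 28780.5 bases, 65.9% and a gap of 1808.5 bases. With regions of at least 1000 bases there were 313, 1786 and 1615, 32885 bases, 70.2%, 1895 bases and 2650 bases. Joining regions under 1000 bases apart first gave 479, 2781 and 2205, a span of 31354 bases, a gap of 2268.5 bases and members of 2340 bases. Counting every chain region as a member gave a median of 1894.5 bases. Chaining by centres, added after seeing the data, gave a span of 21804 bases, 53.8% covered and members of 1829 bases. The density ratio ran from 2.81 (chains of 4 or more) to 4.97 (regions of at least 1000 bases), for pairs of autosomes that differed: the densest was 19 or 11 and the sparsest 14 or 3. Its interval is too wide to show stability. Members were longer by median than other regions within the bounds under each setting that applied the same bounds to both. All of these but chaining by centres measured gaps from edge to edge, which ties length to the rule. They therefore do not test the difference apart from the rule. By centres it was 108 bases. Without tag counts per region, members near the calling threshold cannot be told from strong ones. No paired analysis was possible because each group had 1 sample.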

Other observations

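Region names carry a trailing number, which the header leaves unexplained. As a percentage of the highest number on its chromosome, it had a median of 61.2% in members and 60.7% in other regions within the same length bounds. At the shortest length the medians were 82.6% for 746 chain regions and 82.2% for 5952 others. By this number, members and other regions of the same length bounds were close, while regions of the shortest length stood higher in chains and outside them.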
